A study of Homo sapiens with 16 samples.

Results

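Ultracentrifuged extracellular vesicles (UC EVs) of PC3 were compared with UC EVs of MDA-MB-231. PC3 is a cell line from a prostate cancer metastasis and MDA-MB-231 is a cell line from a triple-negative breast cancer. The members were chosen by label alone: the libraries of vesicles pelleted by ultracentrifugation, which are 4 of the 16 libraries of the series, with 2 of each line. The labels abbreviate this isolate as VC, and it was taken to stand for ultracentrifugation. Both lines are untreated lines grown in serum-containing medium, vesicles were taken from serum-free conditioned medium, and RNA was extracted with TRIzol. The serum content given for MDA-MB-231 growth medium differs between the labels and the study's methods. The other 12 libraries come from vesicles isolated from the same lines with an aqueous two-phase system (ATPS) or with the exoRNeasy column kit and from the cells. They are used only to show where the line difference in UC EVs departs from theirs. Each group is a single cell line, so a difference between the lines cannot be read as a difference between prostate and breast cancer. No source says whether the 2 libraries of a line came from separate cultures, so a p-value here measures no more than how far these libraries spread, which may be technical.

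Extracellular vesicles are membrane particles that cells release with a cargo of RNA and protein. A microRNA (miRNA) is a short RNA that guides the silencing complex to messenger RNAs, mainly by pairing through its seed, bases 2 to 8. Small nucleolar RNAs (snoRNAs) work in the nucleolus, where C/D box snoRNAs guide ribose methylation and H/ACA box snoRNAs guide pseudouridylation, and a few of them direct cleavage of the ribosomal RNA precursor. Small RNA libraries of vesicles often hold fragments of such longer RNAs beside mature miRNAs. The circRNA entries are annotated circular RNAs, and whether the short reads counted for them come from circular molecules was not tested.

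All values are TPM as deposited, here the reads of a species divided by all reads of its RNA class in the same library and scaled to a fixed total, without a length term. A level is therefore a share of the reads of a class, and a library rich in one species has lower values of the others. Neither the number of vesicles nor the RNA per vesicle can be read from such data. Whole reads were recovered from the values (100% of values within 0.1 read of a whole number). The miRNA reads were the fewest, with 14612 and 14515 in PC3 UC EVs against 24730 and 26726 in MDA-MB-231 UC EVs, so 1 read was worth 68.4 and 68.9 TPM in PC3 and 40.4 and 37.4 TPM in MDA-MB-231. The snoRNA reads were 100919 and 94210 in PC3 against 400429 and 169221 in MDA-MB-231. The circRNA reads, where one read can be counted for several entries, ranged from 167339354 to 181726515 in PC3 and from 241083557 to 245183283 in MDA-MB-231. Replicates differed beyond sampling noise in both lines, with a chi-square per degree of freedom of 2.15 in PC3 and 13.9 in MDA-MB-231 for miRNA, and of 5.57 in PC3 and 130 in MDA-MB-231 for snoRNA, so all 4 were kept as separate libraries. These values grow with depth, which was greater in MDA-MB-231, and are not a comparison of the lines. Of the species in the tables, 93 of 915 miRNA entries and 243 of 413 snoRNA entries with at least 10 reads in at least 2 of the 4 UC libraries were tested, and they held at least 96.8% of the miRNA reads and 99.8% of the snoRNA reads of each library. An entry could meet this filter through the libraries of a single line, more easily through the deeper ones of MDA-MB-231. Counts of rises and falls are therefore not balanced.

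The miRNA sequences that the largest line differences turn on are shown because several pairs share a seed, and their members differed between the lines in the same or in opposite directions. Mature sequences and positions are from RefSeq (GRCh38.p14), 5′ to 3′, with the seed in capitals, and 77 of the 93 tested entries matched an annotated miRNA. The miRNAs that rose in PC3 UC EVs and are shown are
hsa-miR-182-5p: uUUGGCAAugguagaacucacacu
hsa-miR-183-5p: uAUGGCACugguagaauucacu
hsa-miR-361-3p: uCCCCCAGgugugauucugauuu
hsa-miR-27a-3p: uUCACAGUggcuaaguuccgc
and the miRNAs that fell and are shown are
hsa-miR-27b-3p: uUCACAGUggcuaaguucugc
hsa-miR-30a-5p: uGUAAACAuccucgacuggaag
hsa-miR-30e-5p: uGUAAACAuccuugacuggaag
hsa-miR-181a-5p: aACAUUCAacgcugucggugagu
hsa-miR-181b-5p: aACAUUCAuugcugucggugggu
hsa-miR-224-5p: uCAAGUCAcuagugguuccguuuag
hsa-miR-221-3p: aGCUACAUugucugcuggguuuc
hsa-miR-222-3p: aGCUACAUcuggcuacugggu
The pair of miR-27 paralogues differs at a single base outside the seed, C19U (miR-27a-3p base, position from the 5′ end, miR-27b-3p base), and miR-30a-5p and miR-30e-5p differ by C13U in the same notation. Reads that map to several places were weighted by the authors in a way the values do not show, so close paralogues may share reads.

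PC3 UC EVs were dominated by miR-182-5p, and the entries with the most reads in MDA-MB-231 UC EVs were an rRNA-like hairpin entry, miR-222-3p and mir-21. Of the 93 miRNA entries tested, 18 (19.4%) were higher and 33 (35.5%) were lower in PC3 than in MDA-MB-231 UC EVs (limma, Benjamini-Hochberg adjusted p under 0.05), and the median log2 fold change over all 93 was -0.65. Fold changes are PC3 over MDA-MB-231 on log2(TPM + 50), which understates the change of species near 1 read. The direction split depends on what fills the rest of a library. It was 24 higher and 24 lower after quantile normalization, 29 and 22 when miR-182-5p was taken out and the values were rescaled, 12 and 43 without entries that overlap rRNA or snoRNA, and 6 and 38 over mature names alone. These rescalings moved the median of all entries by -0.68 to 0.88 on the log2 scale. Single folds below are read against that range.

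The miR-183 cluster (with miR-96 and miR-182), a polycistron on chromosome 7 known from sensory cells and overexpressed in many carcinomas, rose as a group. All 4 tested entries were higher in PC3 UC EVs, beside 19.4% of all tested, with a median log2 fold change of 2.88. Its entries together held 48.4% and 50.3% of the miRNA reads in PC3 UC EVs, against 2.90% and 3.73% in MDA-MB-231 UC EVs. Nearly all of this was miR-182-5p (chr7:129770447-129770470, minus strand), which is known to repress FOXO transcription factors. It was at 475568 and 493421 TPM in PC3, against 26971 and 35284 TPM in MDA-MB-231, a log2 fold change of 3.97 ± 0.14 (SE, n = 2 libraries a line, adjusted p = 3.63e-10). The lines lay far apart and the replicates of each line close together. miR-183-5p was at 2532 and 3238 TPM in PC3 and at 525.7 and 411.6 TPM in MDA-MB-231 (log2 2.5, adjusted p = 0.000143). The hairpin-named entries mir-183 and mir-182 rose by 3.26 and 1.27 (adjusted p = 0.000203 and 0.00538), and mir-182 was no longer called when any single library was left out.

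**Figure D1:**
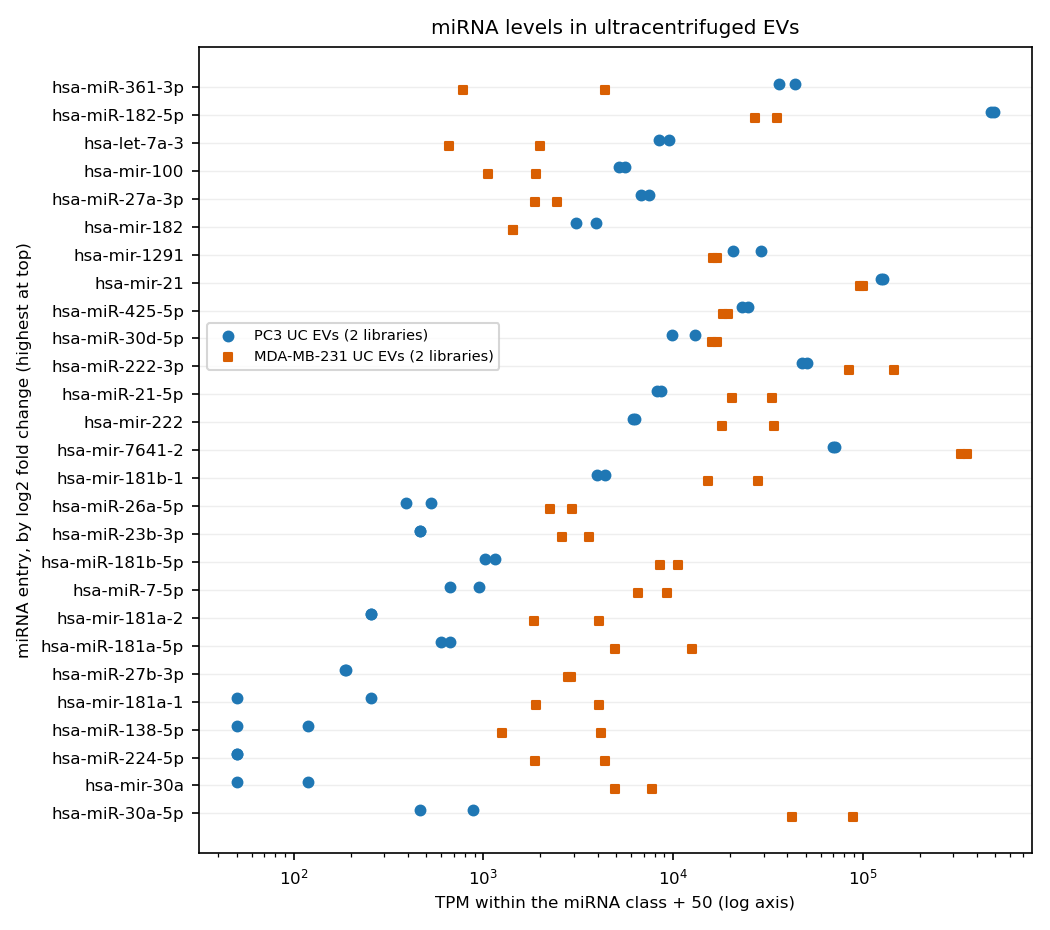
TPM within the miRNA class plus 50 (log axis) of the largest changes and the most abundant miRNA entries, ordered by log2 fold change, with 1 point per library for PC3 UC EVs (circles) and MDA-MB-231 UC EVs (squares). miR-182-5p lies at or above 475568 TPM in both PC3 libraries and at or under 35284 TPM in both MDA-MB-231 libraries, and miR-30a-5p shows the widest gap in the other direction.

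Outside that cluster the largest rise was that of miR-361-3p, processed from a hairpin in an intron of CHM on chromosome X. It was at 44073 and 36238 TPM in PC3 UC EVs and at 727.9 and 4340 TPM in MDA-MB-231 UC EVs (log2 4.44 ± 0.94, SE, adjusted p = 0.0204). The MDA-MB-231 replicates differed widely, yet both stayed far below PC3, and the call was lost under TMM scaling and 3 of the other settings. let-7a-3, a hairpin-named entry in the host gene MIRLET7BHG, was at 9444 and 8405 TPM in PC3 and at 606.6 and 1946 TPM in MDA-MB-231 (log2 2.97, adjusted p = 0.000541). mir-100, the hairpin entry of an miRNA in MIR100HG, was at 5543 and 5167 TPM in PC3 and at 1011 and 1833 TPM in MDA-MB-231 (log2 1.93, adjusted p = 0.000537). Its mature arm miR-100-5p was at 8897 and 6407 TPM in PC3 and 13385 and 14144 TPM in MDA-MB-231 (log2 -0.86, adjusted p = 0.0421), but this direction depends on the scaling. The log2 fold change was 0.142 after quantile normalization and 0.0446 without miR-182-5p, and the call was also lost under TMM scaling, in edgeR, in DESeq2 and when any single library was left out. Among entries with fewer reads, miR-342-3p, from an intron of EVL and named with its values in view, was at 1300 and 1998 TPM in PC3 and at 161.7 and 37.4 TPM in MDA-MB-231 (log2 3.61, adjusted p = 0.000567), a call lost without MDA-MB-231 replicate 2.

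The largest fall was that of miR-30a-5p (chr6:71403595-71403616, minus strand, in an intron of LINC00472), a miRNA known to repress the autophagy gene BECN1. It was at 410.6 and 826.7 TPM in PC3 UC EVs, against 88354 and 42131 TPM in MDA-MB-231 UC EVs, a log2 fold change of -6.59 ± 0.46 (SE, adjusted p = 1.4e-06). Its hairpin entry mir-30a had 1 and 0 reads in PC3 and 191 and 131 reads in MDA-MB-231, a ratio of 182-fold lower in PC3 with a 95% counting interval of 32.5 to 7220. Its other arm, miR-30a-3p, had no read in either PC3 library and 18 and 11 reads in MDA-MB-231, at least 5.47-fold lower in PC3 when 3 reads are allowed over both PC3 libraries. All products of this hairpin thus lay lower in PC3.

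In the miR-30 family 6 of 7 tested entries were lower, beside 35.5% of all tested, none was higher and the median was -2.28. Of these, miR-30a-5p, mir-30a and miR-30a-3p come from the same hairpin and are not separate observations. The entries mir-30a and miR-30a-3p met the read filter through MDA-MB-231 alone, so they could hardly have come out higher in PC3. The family held 1.40% and 1.78% of the miRNA reads in PC3 and 12.6% and 7.91% in MDA-MB-231. miR-30c-5p was at 1027 and 1102 TPM in PC3 and at 5742 and 5014 TPM in MDA-MB-231 (log2 -2.28, adjusted p = 9.78e-05). miR-30e-5p was at 1095 and 1171 TPM in PC3 and at 4044 and 3180 TPM in MDA-MB-231 (log2 -1.62, adjusted p = 0.00104), a call lost after quantile normalization, in DESeq2 and without miR-182-5p. miR-30d-5p, which also has this family's seed by name, was at 9855 and 12952 TPM in PC3 and at 15932 and 17062 TPM in MDA-MB-231, and did not pass the test (log2 -0.54, adjusted p = 0.159). It was the most abundant miR-30 entry in PC3 UC EVs and miR-30a-5p in MDA-MB-231 UC EVs.

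Members of the miR-181 family, known from lymphocyte development, were also lower. miR-181a-5p was at 547.5 and 620 TPM in PC3 and at 12495 and 4902 TPM in MDA-MB-231 (log2 -3.64, adjusted p = 8.25e-05). miR-181b-5p was at 1095 and 964.5 TPM in PC3 and at 10514 and 8494 TPM in MDA-MB-231 (log2 -3.14, adjusted p = 8.22e-06). The hairpin entries mir-181a-1, mir-181a-2 and mir-181b-1 had log2 fold changes of -4.62, -3.42 and -2.31 and were all called. miR-181d-5p, named after its values were seen, has the same seed but lies in another cluster and had a log2 fold change of -0.06 that did not pass the test.

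Among the other falls, miR-224-5p, from a hairpin in GABRE, had no read in either PC3 library and 45 and 116 reads in MDA-MB-231, at least 30.4-fold lower in PC3. It was the miRNA with the most reads among the 46 that both MDA-MB-231 libraries and neither PC3 library held. The 8 miRNAs of the reverse pattern had at most 8 reads, those of miR-10b-5p. Both counts depend on depth, which was 14612 and 14515 miRNA reads in PC3 against 24730 and 26726 in MDA-MB-231. miR-138-5p, which is abundant in neurons, had 1 and 0 reads in PC3 and 102 and 32 in MDA-MB-231, a ratio of 75.9-fold lower in PC3 (95% counting interval 13.4 to 3020), though its call was lost when either MDA-MB-231 library was left out. miR-7-5p, known to repress EGFR, was at 615.9 and 895.6 TPM in PC3 and at 9300 and 6473 TPM in MDA-MB-231 (log2 -3.30, adjusted p = 8.44e-06). miR-26a-5p was at 342.2 and 482.3 TPM in PC3 and at 2871 and 2208 TPM in MDA-MB-231 (log2 -2.49, adjusted p = 0.000284).

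The paralogous clusters of miR-23, miR-27 and miR-24 gave opposite directions for a shared seed. miR-27a-3p, from the cluster in MIR23AHG on chromosome 19, was at 7391 and 6752 TPM in PC3 and at 1820 and 2395 TPM in MDA-MB-231 (log2 1.73, adjusted p = 0.000864). miR-27b-3p, from the cluster in an intron of AOPEP on chromosome 9, was at 136.9 and 137.8 TPM in PC3 and at 2750 and 2844 TPM in MDA-MB-231 (log2 -3.92, adjusted p = 5.66e-05). The pair thus moved apart although only the C19U change separates them. miR-23b-3p, beside miR-27b, was also lower, at 410.6 and 413.4 TPM in PC3 and at 2548 and 3555 TPM in MDA-MB-231 (log2 -2.73, adjusted p = 9.78e-05). miR-23a-3p, beside miR-27a, did not rise with it and had a log2 fold change of -1.01 (adjusted p = 0.034), which passed no longer under TMM scaling, quantile normalization, edgeR or DESeq2 or without any library but MDA-MB-231 replicate 2. The opposite arm miR-27a-5p rose by 2.37 (adjusted p = 0.000154).

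The X-linked miR-221 and miR-222 cluster, known to repress the cell cycle inhibitor CDKN1B, was lower in PC3 in all 5 tested entries, with a median of -1.43, but in 2 of 5 after quantile normalization, in DESeq2 or without miR-182-5p (medians -0.58, -1.05 and -0.54) and in 2 to 3 of 5 when a library was left out. Over all tested miRNA entries, 35.5% were lower. The cluster held 6.21% and 6.0% of the miRNA reads in PC3 UC EVs and 11.6% and 19.8% in MDA-MB-231 UC EVs. miR-222-3p was at 50917 and 47882 TPM in PC3 and at 84998 and 146337 TPM in MDA-MB-231 (log2 -1.18, adjusted p = 0.00404). The call is close to the range that rescaling covers, since it was lost after quantile normalization, in DESeq2 and when miR-182-5p was taken out, where the log2 fold change was -0.27. miR-221-3p, with the same seed, fell by 1.75 (adjusted p = 0.000911), a call lost without PC3 replicate 1 or either MDA-MB-231 library.

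In the list of the miR-17 to miR-92 and related clusters, 3 of 3 tested entries were lower, beside 35.5% of all tested. They were miR-92a-3p, miR-92b-3p and miR-93-5p, with log2 fold changes of -2.25, -2.07 and -1.68. The call of miR-93-5p was lost under TMM scaling, quantile normalization, edgeR and DESeq2, and 1 of the 3 was called when either MDA-MB-231 library was left out. miR-92b-3p has the seed of miR-92a-3p but lies outside those clusters, and miR-93-5p lies in MCM7 on chromosome 7. Only miR-92a-3p has a copy in MIR17HG. Of the 10 tested entries of the let-7 family, which represses RAS and HMGA genes, 2 were higher and 1 was lower. Over all tested miRNA entries, 19.4% were higher and 35.5% lower. The hairpin names let-7a-3 and let-7b were higher, let-7b not without MDA-MB-231 replicate 1, the mature arm let-7i-5p was lower, a call lost under TMM scaling, quantile normalization, edgeR and DESeq2, and the other 7 did not pass. The list of miR-99, miR-100 and miR-125 had 1 of 4 higher and 1 of 4 lower, both named above. None of the 4 tested entries of miR-103, miR-107, miR-425 and miR-191 and neither tested miR-146a entry passed. miR-146a-5p was at 958.1 and 68.9 TPM in PC3 and at 4893 and 3891 TPM in MDA-MB-231, but its PC3 replicates lay too far apart for a call (log2 -3.67, adjusted p = 0.0613). The result depended on the processing. Of the 2 miR-146a entries, 1 was called lower after quantile normalization, in edgeR and in DESeq2, both with a pseudocount of 500 TPM and neither under TMM scaling.

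miR-21, which represses PDCD4, was abundant in both lines, and its entries went in opposite directions. The hairpin-named entry mir-21 was at 127224 and 124561 TPM in PC3 UC EVs and at 96644 and 100501 TPM in MDA-MB-231 UC EVs (log2 0.35, adjusted p = 0.0209). The mature arm miR-21-5p was at 8623 and 8198 TPM in PC3 and at 33239 and 20392 TPM in MDA-MB-231 (log2 -1.62, adjusted p = 0.00104). Both together held similar shares, 13.6% and 13.3% in PC3 and 13% and 12.1% in MDA-MB-231. The rise of mir-21 is small and depended on the processing, with a log2 fold change of -0.145 once entries that overlap rRNA or snoRNA were left out.

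Hairpin-named entries, 418 of the 915 names, held 29.3% and 27.8% of the miRNA reads in PC3 UC EVs and 55.4% in each of the MDA-MB-231 UC EV libraries. The hairpin-named entry with the most reads in MDA-MB-231 was mir-7641-2, an entry of rRNA-like sequence, at 69874 and 71512 TPM in PC3 and at 356005 and 329529 TPM in MDA-MB-231 (log2 -2.28 ± 0.10, SE, adjusted p = 1.06e-09). The other 417 hairpin-named entries held 22.3% and 20.7% in PC3 and 19.8% and 22.5% in MDA-MB-231, so the lines overlapped. Such entries may count fragments of ribosomal RNA. In the list of 7 tested entries that overlap rRNA, mir-7641-2 was lower, the copies mir-3648-1 and mir-3648-2 were higher with identical values (log2 3.58), and 4 did not pass. All 20 entries of this list, tested or not, made up 7.88% and 8.18% of the miRNA reads in PC3 and 36.3% and 33.5% in MDA-MB-231.

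The 8 most abundant miRNA entries held 82.9% and 83.2% of the reads in PC3 UC EVs and 72.4% and 73.6% in MDA-MB-231 UC EVs. The most abundant entries that did not pass the test were mir-1291 and miR-425-5p, each higher in both PC3 libraries than in both MDA-MB-231 libraries, with log2 fold changes of 0.56 and 0.35 (adjusted p = 0.114 and 0.273). Most of the cell type lists were near 0 in all 4 libraries. The epithelial miR-200 family with miR-205 and miR-203, 5 entries in the table, had 1 and 0 reads in PC3 and 0 and 2 reads in MDA-MB-231. This list was also near 0 in the cells, at 0.0174% and 0.0164% of the miRNA reads in PC3 and 0.0158% in MDA-MB-231 cell replicate 1. It is not a list of a foreign cell type for these lines. Markers of blood, endothelium and liver had 0 and 5 reads in PC3 and 12 and 5 in MDA-MB-231, and muscle markers had none in either line. The list of miRNAs of neurons had 14 and 16 reads in PC3 and 149 and 65 in MDA-MB-231, of which miR-138-5p held 102 and 32, so this list was not near 0. None of these lists defines prostate or breast cells, so the labels of the lines could not be checked against a marker.

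The snoRNA sequences shown are those on which the snoRNA differences turn, the imprinted C/D box snoRNAs that rose in PC3 UC EVs and the H/ACA box snoRNAs that fell. They are from GENCODE annotation of GRCh38, written 5′ to 3′ as DNA. The capitals mark the C box (TGATGA) and D box (CTGA) or, for H/ACA box snoRNAs, the ACA that lies 3 bases before the end. On the RNA strand, TGATGA and a later CTGA were found in 112 of 152 tested C/D names with a sequence (73.7%), and the ACA at this place in 53 of 72 H/ACA names (73.6%). The imprinted snoRNAs are
SNORD116-20: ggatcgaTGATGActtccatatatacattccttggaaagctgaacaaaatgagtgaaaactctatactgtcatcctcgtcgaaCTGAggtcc
SNORD116-9: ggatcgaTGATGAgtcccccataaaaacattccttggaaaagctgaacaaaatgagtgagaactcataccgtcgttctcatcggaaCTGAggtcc
SNORD107: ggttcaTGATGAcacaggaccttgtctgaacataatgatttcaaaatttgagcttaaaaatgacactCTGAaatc
SNORD64: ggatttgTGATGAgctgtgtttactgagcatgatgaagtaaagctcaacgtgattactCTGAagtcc
SNORD113-9: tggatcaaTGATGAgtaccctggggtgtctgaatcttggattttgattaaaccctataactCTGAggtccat
and the H/ACA box snoRNAs are
SNORA65: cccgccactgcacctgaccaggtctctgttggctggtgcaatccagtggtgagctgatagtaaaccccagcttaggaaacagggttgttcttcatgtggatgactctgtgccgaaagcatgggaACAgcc
SNORA32: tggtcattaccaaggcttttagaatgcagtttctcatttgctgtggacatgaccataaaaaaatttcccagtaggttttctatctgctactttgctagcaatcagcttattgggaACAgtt
SNORA58B: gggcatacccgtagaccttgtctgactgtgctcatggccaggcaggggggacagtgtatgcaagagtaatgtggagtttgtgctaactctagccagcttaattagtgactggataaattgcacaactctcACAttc
SNORD116-20 lies at chr15:25087662-25087753 on the plus strand, SNORA65 at chr9:127448501-127448630 and SNORA32 at chr11:93730979-93731099, both on the minus strand.

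In snoRNA, the imprinted SNORD116 group was higher in PC3 UC EVs, while H/ACA box snoRNAs and part of the U3 copies were lower. Of 243 snoRNA entries tested, 40 (16.5%) were higher and 55 (22.6%) were lower in PC3 than in MDA-MB-231 UC EVs (limma on log2(TPM + 5), adjusted p under 0.05), and the median log2 fold change was -0.10. These calls rest on having both PC3 libraries, since without PC3 replicate 1 no entry passed (67 at an unadjusted p under 0.05) and without replicate 2 only 3 were higher and 8 lower, although no called entry changed direction. Without MDA-MB-231 replicate 2 the counts were 84 higher and 72 lower. The cause was not tested.

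SNORD116 is a tandem array of C/D box snoRNAs in the host transcript SNHG14 on chromosome 15q11, a region expressed from the paternal copy and deleted in Prader-Willi syndrome. All 22 copies tested were higher in PC3 UC EVs, beside 16.5% of all tested, with log2 fold changes of 3.22 to 5.03 and a median of 3.57. Without PC3 replicate 1 or 2 the median was 3.45 or 3.70 with 0 or 1 copy called. The SNORD115 and SNORD116 entries, 56 in the table, held 4.43% and 3.48% of the snoRNA reads in PC3 and 0.181% and 0.539% in MDA-MB-231, and no SNORD115 copy had enough reads to be tested. SNORD116-20 was at 4558 and 3418 TPM in PC3 and at 187.3 and 490.5 TPM in MDA-MB-231 (log2 3.68 ± 0.50, SE, adjusted p = 0.000428). SNORD116-8 was at 1585 and 1242 TPM in PC3 and at 42.5 and 130 TPM in MDA-MB-231 (log2 4.14, adjusted p = 0.000426). SNORD116-9 and SNORD116-3 had the same values in every library, 3171 and 2611 TPM in PC3 and 139.9 and 455 TPM in MDA-MB-231 (log2 3.48, adjusted p = 0.000857). The 22 copies are 71.6 to 100% identical in 231 pairs, with 3 identical pairs and 18 different patterns of values. Such near-identical copies may share reads, so their number is not a number of separate observations.

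The rise covered all 24 snoRNAs tested between SNORD107 and the end of the array (chr15:24981994-25106603), which are 24 of the 40 that were higher in PC3. SNORD107, an orphan snoRNA upstream of the array, had 28 and 38 reads in PC3 and 2 and 0 in MDA-MB-231, a ratio of 96.3-fold higher in PC3 with a 95% counting interval of 25.6 to 812. SNORD64 was at 663.9 and 700.6 TPM in PC3 and at 57.4 and 159.6 TPM in MDA-MB-231 (log2 2.76, adjusted p = 0.00289). At the other imprinted snoRNA locus, 14q32, a single entry could be tested. SNORD113-9, in an intron of MEG8, had 16 and 11 reads in PC3 and none in MDA-MB-231, at least 26.3-fold higher in PC3 when 3 reads are allowed over both MDA-MB-231 libraries. The miRNAs of 14q32 had too few reads to be tested, 3 and 2 in PC3 and 0 and 0 in MDA-MB-231.

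The other C/D box rises included abundant species. SNORD20, in the nucleolin gene NCL, was at 50238 and 72965 TPM in PC3 and at 16852 and 13887 TPM in MDA-MB-231 (log2 1.98 ± 0.34, SE, adjusted p = 0.00131). SNORD104, in SNHG25, was at 20878 and 19786 TPM in PC3 and at 2220 and 6104 TPM in MDA-MB-231 (log2 2.46, adjusted p = 0.00225). SNORD59A, in an intron of ATP5F1B, was at 16627 and 12939 TPM in PC3 and at 1453 and 4763 TPM in MDA-MB-231 (log2 2.48, adjusted p = 0.00401). Of all 158 C/D names tested, 39 were higher and 19 lower, with a median of 0.60. Outside the stretch from SNORD107 to the end of the SNORD116 array, 15 of 134 were higher (11.2%) and 19 lower (14.2%), with a median of 0.34, both shares below the 16.5% and 22.6% over all tested.

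In the main fit no H/ACA box snoRNA passed the test in the direction of PC3, and 32 of 75 were lower, beside 22.6% of all tested. In edgeR 2 were higher and 38 lower, and with a minimum of 50 reads 1 was higher and 17 of 34 were lower. SNORA32 and SNORA65 are among those that met the read filter through the deeper MDA-MB-231 libraries alone, which favours falls in this count. The median of all 75 was -1.23. Without PC3 replicate 1 or 2 the median was -1.12 or -1.35 with 0 or 4 called. Their share was 2.79% and 2.80% of the snoRNA reads in PC3 and 4.31% and 4.73% in MDA-MB-231. SNORA65, a pseudouridylation guide in an intron of RPL12, was at 49.5 and 63.7 TPM in PC3 and at 781.7 and 797.8 TPM in MDA-MB-231 (log2 -3.70 ± 0.45, SE, adjusted p = 0.000188). SNORA32, in the host gene TAF1D, had 1 and 3 reads in PC3 and 334 and 96 in MDA-MB-231 (log2 -4.89, adjusted p = 0.000166). SNORA58B, in UBAP2L, was at 257.6 and 244.1 TPM in PC3 and at 2060 and 1105 TPM in MDA-MB-231 (log2 -2.56, adjusted p = 0.00152). Length did not separate called from uncalled members of a box class by much. The median was 134 bases for the 30 called H/ACA snoRNAs with a sequence and 133 bases for the uncalled ones, and, leaving out SNORD116, 76 bases for 17 C/D box rises, 81.5 bases for 16 falls and 78 bases for the uncalled ones.

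In the list of U3, U8, U13, U14 and U17 snoRNAs, 7 of 15 entries were lower, beside 22.6% of all tested, and none higher. The median was -0.58, and -0.63 or -0.54 without PC3 replicate 1 or 2. Here too the calls rest on having both PC3 libraries. The entries of this list held 1.91% and 1.51% of the snoRNA reads in PC3 and 3.19% and 3.55% in MDA-MB-231. SNORD3E, a U3 copy in an intron of TEX11, was at 148.6 and 201.7 TPM in PC3 and at 3584 and 2854 TPM in MDA-MB-231 (log2 -4.17 ± 0.42, SE, adjusted p = 0.000148). The entry named U3, which stands for many annotated copies and is not counted in that list, was at 198.2 and 233.5 TPM in PC3 and at 3646 and 2919 TPM in MDA-MB-231 (log2 -3.89, adjusted p = 0.000148). Both entries may share reads. SNORD3A fell by 1.23 (adjusted p = 0.0203), and SNORD118, the U8 gene, had a log2 fold change of -0.58 that did not pass.

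**Figure D2:**
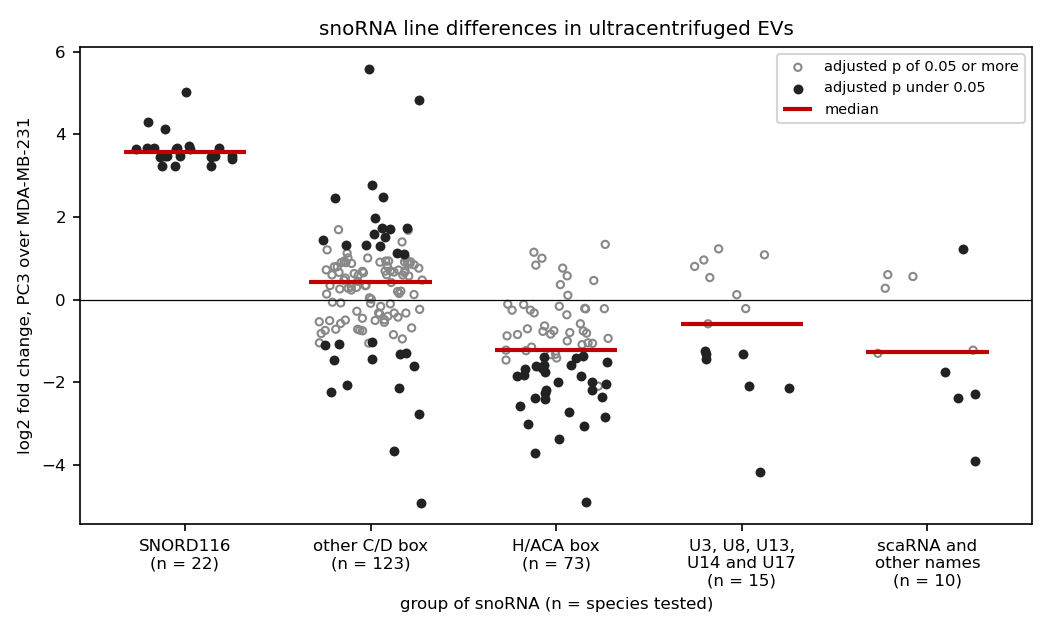
Log2 fold change (PC3 over MDA-MB-231 UC EVs) of each tested snoRNA by group, with filled points for an adjusted p under 0.05 and a line at the group's median. The 22 SNORD116 copies all lie above 3, and the called H/ACA box snoRNAs all lie below 0.

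By host gene, the 48 tested snoRNAs in ribosomal protein genes had a median log2 fold change of -0.03, with 11 lower, beside 22.6% of all tested, and 1 higher, beside 16.5%, and the 6 in SNHG1 had none called. In RABGGTB, SNORD45B had 1 and 1 reads in PC3 and 76 and 32 in MDA-MB-231 (ratio 18.5-fold lower in PC3, 95% counting interval 5.0 to 155), and SNORD45A and SNORD45C did not pass. The entry SNORD45 had no read in PC3 and 68 and 21 in MDA-MB-231, at least 10.2-fold lower in PC3. The 2 most abundant snoRNAs did not pass the test. SNORD49A, in SNHG29, held 19.4% and 18.8% of the snoRNA reads in PC3 and 10.7% and 22.5% in MDA-MB-231, so the lines overlapped. SNORD2, in EIF4A2, held 11.5% and 11% in PC3 and 25.9% and 13.8% in MDA-MB-231 (log2 -0.75, adjusted p = 0.136). SNORD18A, in RPL4, and SNORD6, in TAF1D, were both lower in PC3, with log2 fold changes of -1.10 and -1.03 (adjusted p = 0.0218 and 0.034).

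The same line contrast in the other materials shows which differences are seen beyond UC EVs. In ATPS EVs, 50 of the 51 miRNA entries called in UC EVs and 91 of the 95 called snoRNA entries had the same direction, against 86.0% of all tested miRNA and 88.5% of all tested snoRNA. In exoRNeasy EVs these counts were 43 of 51 and 83 of 95, against 75.3% and 78.6%. In cells they were 39 of 51 and 59 of 95 over all libraries, against 69.9% and 58.0%. MDA-MB-231 cell replicate 2 held only 153 miRNA reads and 16635 snoRNA reads. Without it they were 47 of 51 and 71 of 95, against 78.5% and 66.7%. The difference between the line contrasts was tested with a model over all 16 libraries. Against ATPS EVs it was called for no miRNA (0.0%; 2 at an unadjusted p under 0.05, and 0 in edgeR) and no snoRNA (0.0%; 26 unadjusted, and 1 in edgeR). Against exoRNeasy EVs it was called for no miRNA (0.0%; 13 unadjusted, and 4 in edgeR) and 6 snoRNAs (2.47%), and against cells for 1 miRNA (1.08%) and 39 snoRNAs (16%).

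**Figure D3:**
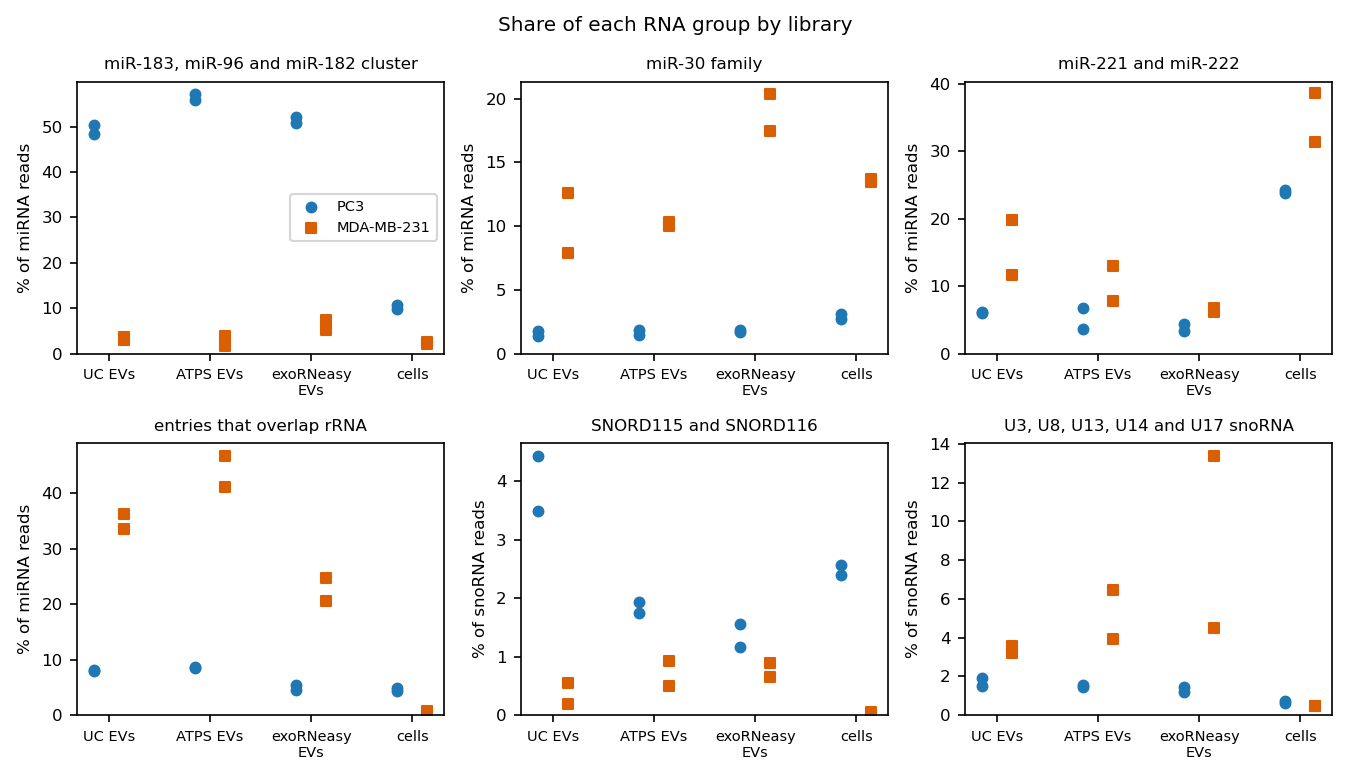
Share of the miRNA or snoRNA reads held by 6 groups in UC EVs, ATPS EVs, exoRNeasy EVs and cells, with 1 point per library for PC3 (circles) and MDA-MB-231 (squares). The miR-183 cluster holds 48.4% and 50.3% of the reads in PC3 UC EVs, and 10.6% and 9.73% in PC3 cells, and the entries that overlap rRNA change sides between vesicles and cells.

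miR-182-5p was higher in PC3 in every material, at 475568 and 493421 TPM in PC3 UC EVs against 26971 and 35284 TPM in MDA-MB-231 UC EVs, and at 102028 and 92179 TPM in PC3 cells against 19090 and 26144 TPM in MDA-MB-231 cells. miR-30a-5p was lower in PC3 in every material, at 668.2 and 872.6 TPM in PC3 cells against 75208 and 26144 TPM in MDA-MB-231 cells. The second value given for MDA-MB-231 cells here is that of replicate 2, with 153 miRNA reads, where 1 read was worth 6536 TPM. The single miRNA entry whose line difference in UC EVs was called different from that in cells was mir-7641-2. It was at 42734 and 47358 TPM in PC3 cells and at 3110 and 6536 TPM in MDA-MB-231 cells, the reverse of UC EVs. The log2 difference between the contrasts was -5.58 ± 0.41 (SE, adjusted p = 3.17e-07), and -6.11 without MDA-MB-231 cell replicate 2. The 3 vesicle materials lay together here, with a share of rRNA-overlapping entries of 4.59 to 8.65% in PC3 vesicles and 20.6 to 46.8% in MDA-MB-231 vesicles.

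The 39 snoRNAs whose line difference departed from that of cells included 9 of 22 SNORD116 copies, 7 of 7 entries of U3 and 10 of 75 H/ACA box snoRNAs, beside 16% of all tested. For 32 of them the log2 fold change was lower in UC EVs, and 22 had opposite signs in UC EVs and cells. When MDA-MB-231 cell replicate 2, with 16635 snoRNA reads, was left out, 23 of the 39 still passed, among them 6 SNORD116 copies, 6 entries of U3 and 5 H/ACA box snoRNAs. The 9 SNORD116 copies were higher in PC3 in both materials, and the gap was wider in cells. SNORD116-9 was at 2041 and 1882 TPM in PC3 cells and at 4.62 and 0 TPM in MDA-MB-231 cells, and the log2 difference between the contrasts was -4.67 (adjusted p = 0.000183, and 0.000527 without that library). U3 and SNORA58B gave opposite directions. U3 was at 19.4 and 21.3 TPM in PC3 cells and at 5.38 and 0 TPM in MDA-MB-231 cells (log2 difference between the contrasts -5.71, adjusted p = 0.000183, and 0.000527 without that library). SNORA58B was at 78.2 and 75.5 TPM in PC3 cells and at 2.56 and 0 TPM in MDA-MB-231 cells (log2 difference -6.30, adjusted p = 7.3e-05, and 0.00017 without that library). In ATPS and exoRNeasy EVs of PC3 the U3 entry was also lower than in those of MDA-MB-231, at 650.7 and 722.6 against 8111 and 4055 TPM and at 673.7 and 1099 against 21824 and 5266 TPM.

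**Figure D4:**
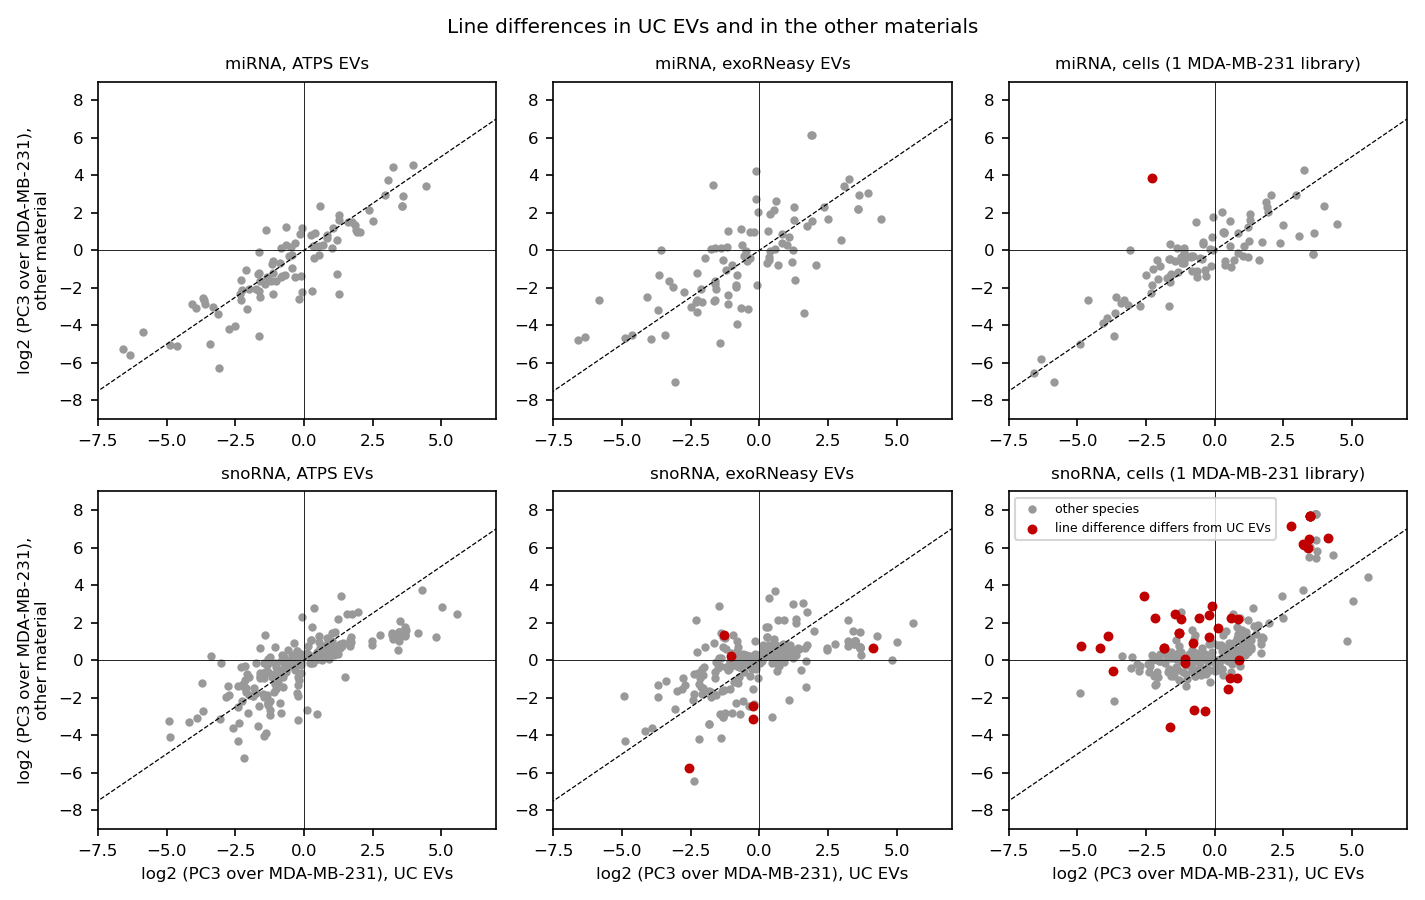
Log2 fold change (PC3 over MDA-MB-231) of each tested miRNA (upper row) and snoRNA (lower row) in UC EVs on the x axis and in ATPS EVs, exoRNeasy EVs or cells on the y axis, with the line of equal values dashed and species in red where the difference between the contrasts had an adjusted p under 0.05 over all libraries. The cell panels leave out MDA-MB-231 cell replicate 2, and mir-7641-2 is the red point of the miRNA row.

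The SNORD115 and SNORD116 entries held 1.74% and 1.94% of the snoRNA reads in PC3 ATPS EVs and 0.501% and 0.931% in MDA-MB-231 ATPS EVs. In exoRNeasy EVs these shares were 1.17% and 1.55% in PC3 and 0.646% and 0.887% in MDA-MB-231. Both gaps between the lines were narrower than in UC EVs. Against exoRNeasy EVs, SNORD116-8 was the only copy called, with the wider line gap in UC EVs. It was at 393 and 470.9 TPM in PC3 exoRNeasy EVs and at 241.1 and 296.3 TPM in MDA-MB-231 exoRNeasy EVs, and the log2 difference between the contrasts was 3.46 ± 0.73 (SE, adjusted p = 0.0248). SNORD6 was lower in PC3 UC EVs, while in exoRNeasy EVs it was at 18078 and 17641 TPM in PC3 and at 13502 and 16937 TPM in MDA-MB-231 (log2 difference -1.27, adjusted p = 0.0393). The count of these differences depended strongly on the libraries, at 0 without PC3 UC EV replicate 1 or 2 and at 27 without MDA-MB-231 UC EV replicate 2.

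The circRNA entries of PC3 UC EVs were dominated by the same 8 entries as those of MDA-MB-231 UC EVs, which hold nearly the same reads and start with hsa_circ_0040314. Each was at 117070 ± 892 TPM in PC3 and at 111730 ± 1920 TPM in MDA-MB-231 (SD, n = 2), a log2 fold change of 0.07 (adjusted p = 0.194), and together they held 93.2% and 94.2% of the circRNA reads in PC3 and 90.5% and 88.3% in MDA-MB-231. Of the 1002 entries with at least 1 TPM in at least 2 UC libraries, 119 (11.9%) were higher and 336 (33.5%) lower in PC3 (limma on log2(TPM + 0.1)), with a median log2 fold change of -0.92. These 1002 entries show only 807 different patterns of values, of which 83 were higher and 276 lower, so many calls repeat the same reads. Without the 8 dominant entries and with the values rescaled, 189 were higher and 182 lower, and the split was 151 and 264 with TMM scaling, 150 and 174 with quantile normalization, 153 and 222 in edgeR and 308 and 306 in DESeq2. Neither direction thus prevailed under every scaling, and the scalings moved the median of all entries by 0.43 to 0.78 on the log2 scale. Without PC3 UC EV replicate 1 or 2 the entries lower in PC3 numbered 154 or 145, and without MDA-MB-231 UC EV replicate 2 they were 559.

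The files and the reference tables used here do not pair the circRNA identifiers with genes, so only a few are named. hsa_circ_0060060 had the largest rise, at 6.45 and 6.12 TPM in PC3 UC EVs and 0.118 and 0.129 TPM in MDA-MB-231 UC EVs (log2 4.84 ± 0.21, SE, adjusted p = 0.000639). hsa_circ_0079194 was at 18.4 and 17.8 TPM in PC3 and at 1.05 and 1.52 TPM in MDA-MB-231 (log2 3.74, adjusted p = 0.00213). For both the replicates of each line lay close together. hsa_circ_0098901 had the largest fall, at 0.143 and 0.0660 TPM in PC3 and at 9.05 and 3.41 TPM in MDA-MB-231 (log2 -4.82, adjusted p = 0.00329). hsa_circ_0116917 was at 0.371 and 0.330 TPM in PC3 and at 15.6 and 5.07 TPM in MDA-MB-231 (log2 -4.32, adjusted p = 0.00506). In the falls the MDA-MB-231 replicates differed more than in the rises, and both stayed above PC3.

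**Figure D5:**
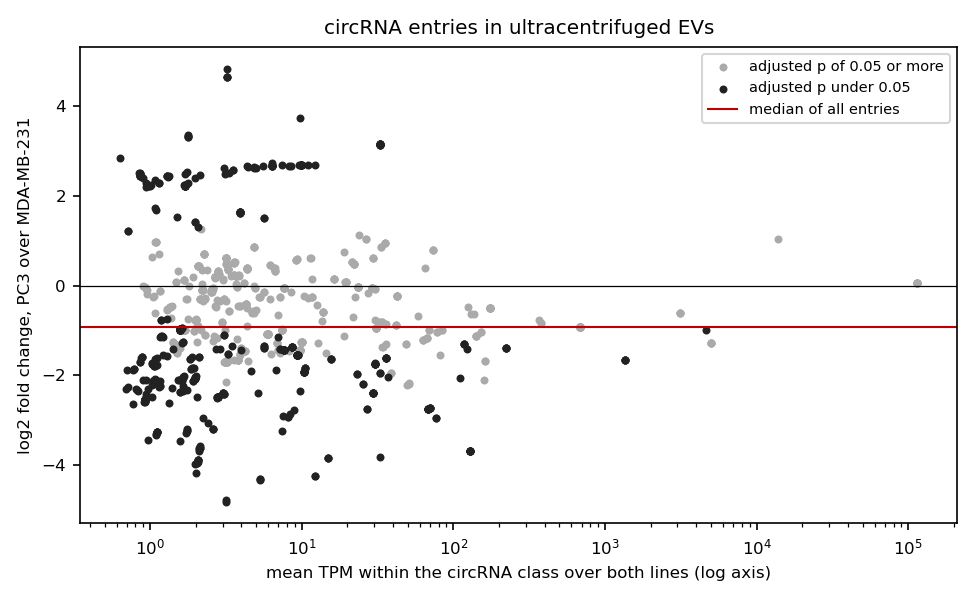
Log2 fold change (PC3 over MDA-MB-231 UC EVs) of the 1002 tested circRNA entries against their mean TPM over both lines (log axis), with dark points for an adjusted p under 0.05 and a line at the median of -0.92. The overlapping dominant entries form the point at the far right, near 0, and rows of points at nearly equal height are entries that hold nearly the same reads.

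Fewer species were detected in PC3 than in MDA-MB-231 UC EVs in each class as deposited. The miRNA species numbered 282 and 256 in PC3 and 337 and 357 in MDA-MB-231, the snoRNA species 306 and 294 in PC3 and 327 and 307 in MDA-MB-231, and the circRNA entries 50918 and 49656 in PC3 and 74023 and 74908 in MDA-MB-231. With 2 libraries a line, the exact permutation test has 6 arrangements and its smallest two-sided p is 0.3333, which all 3 comparisons gave, so none could pass. Depth differed between the lines as well. Drawn down to the reads of the smallest library, the miRNA species numbered 281.3 and 256 in PC3 and 282 and 286.6 in MDA-MB-231, and the snoRNA species 304 and 294 in PC3 and 293.2 and 293.6 in MDA-MB-231, so that the snoRNA difference turned round. The circRNA entries kept their direction, with 50918 and 47902 in PC3 and 65063 and 66394 in MDA-MB-231.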

How the data were processed

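Small RNA libraries (NEBNext) were sequenced on an Illumina NextSeq 2000, and per the labels and the study's methods the authors trimmed reads, kept short ones, aligned them to hg38 with STAR and counted RNA classes with COMPSRA, whose versions no source used here gives. All deposited values are called TPM but are CPM (reads scaled to a fixed total) of 1 RNA class per library, scaled by the authors without a length term. The planned design had assumed TPM, and the tests were kept. Dividing by what 1 read was worth in a library gave whole numbers throughout (100%, tolerance 0.1 read), so reads were recovered for filters, intervals and the count tests.

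Lines were compared with limma 3.58.1 (trend and robust) in R 4.3.3 on log2(TPM + 50) for miRNA, log2(TPM + 5) for snoRNA and log2(TPM + 0.1) for circRNA, over the 4 UC libraries, with Benjamini-Hochberg adjustment over all species tested. miRNA and snoRNA needed 10 reads, and circRNA 1 TPM, in 2 libraries. Line differences in other materials were compared by an interaction contrast over 16 libraries. edgeR 4.0.16 and DESeq2 1.42.0 on recovered reads, other scalings, filters and pseudocounts, and leaving out each library were alternatives. The fits were tested on simulated data with the same set spread in all libraries, so this does not measure errors at the spread of these replicates. Intervals at 95% and floors of 3 reads cover counting error only. Named species are the 12 largest changes each way with no overlap between lines and a mean of 50 reads in the higher line (7 rises qualified for miRNA), the 8 most abundant of each line, and members of lists. The members and lists were chosen with earlier results of these data known.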

Additional observations from a re-analysis of the deposited data

Results flagged for a closer look

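The results below are those in which the difference between PC3 and MDA-MB-231 was itself called different between UC EVs and another material (limma interaction contrast, Benjamini-Hochberg adjusted p under 0.05). Values are the log2 line difference in UC EVs minus that in the other material.

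Against cells, mir-7641-2 had -5.58 (SE 0.411, adjusted p = 3.17e-07), and -6.11 without MDA-MB-231 cell replicate 2, a library of 153 miRNA reads. Among snoRNAs against cells, the difference was -6.30 for SNORA58B, -5.71 for U3, -5.68 for SNORA32, -4.99 for SNORD3E, -3.76 for SNORA65, -4.67 for SNORD116-9 and for SNORD116-3, and -2.63 for SNORD116-8. It was -0.946 for SNORD18A and 1.07 for SNORD63. Without that cell library, SNORD116-8, SNORD18A and SNORD63 no longer passed (adjusted p = 0.0516, 0.0718 and 0.151), and the other 7 did, with SNORA65 closest to the threshold (adjusted p = 0.0402).

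Against exoRNeasy EVs, the difference was 3.46 for SNORD116-8 (adjusted p = 0.0248), 3.17 for SNORA58B (adjusted p = 0.0393) and -1.27 for SNORD6 (adjusted p = 0.0393). SNORA58B was lower in PC3 in both materials, at 37.4 and 78.5 TPM in PC3 exoRNeasy EVs against 4206 and 2371 TPM in MDA-MB-231 exoRNeasy EVs. No such difference was called among snoRNAs when either PC3 UC EV library was left out.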

How the results depend on the processing

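Among the single species named, 1310 alternative values stayed on the same side of the threshold, 196 lost the call and 39 gained one. The 1310 include any change of direction in which neither value passed. Another 4 values changed direction with a call in the main or the alternative fit. They were those of mir-21 (-0.145 without entries that overlap rRNA or snoRNA), miR-100-5p (0.142 after quantile normalization and 0.0446 without miR-182-5p) and SNORD49A (-0.24 without MDA-MB-231 UC EV replicate 1, and 0.83 without replicate 2). The number of miRNA entries higher in PC3 was 6 at 50 reads, 10 over the 12 EV libraries, 8 over 16 libraries, 6 over mature names, and, in alternatives chosen after seeing the data, 29 without miR-182-5p and 11 over 16 libraries without MDA-MB-231 cell replicate 2. The number lower was 16 over 16 libraries. Leaving out 1 library gave 12 to 17 higher and 20 to 31 lower for miRNA, 0 to 84 and 0 to 72 for snoRNA, and 93 to 174 and 145 to 559 for circRNA. For snoRNA, 34 were lower at 50 reads. For circRNA, no filter left 0 and 0 calls (14599 at an unadjusted p under 0.05 by limma), a minimum of 10 TPM 30 and 122, quantile normalization 174 lower, edgeR 222 lower, DESeq2 308 higher, and taking out the 8 dominant entries 189 and 182. The snoRNA species detected differed by 5.60 after equalizing depth, the reverse of the deposited tables.

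Differences between the line contrasts were called for miRNA against exoRNeasy EVs in 1 (12 EV libraries) and 4 (edgeR) entries, and in 0 to 2 when 1 library was left out. Against cells they were 2 with a pseudocount of 1 TPM, 5 in edgeR, and 1 to 39 when 1 library was left out, 39 being without MDA-MB-231 cell replicate 1. For snoRNA they were 1 (12 EV libraries) and 1 (edgeR), and 0 to 9 leaving out 1, against ATPS EVs, and 1 (pseudocount of 1 TPM), 16 (12 EV libraries) and 30 (edgeR), and 0 to 27 leaving out 1, against exoRNeasy EVs. Against cells, leaving out 1 library gave 21 to 66. The cause of these shifts was not tested.

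The labels share replicate numbers between the lines without saying that they pair libraries, and same-numbered UC libraries deviated with correlations of -0.00813 (miRNA), -0.2 (snoRNA) and -0.419 (circRNA). With a replicate block, 17 miRNA entries were higher and 31 lower, 35 and 40 for snoRNA and 125 and 407 for circRNA, the contrast against cells was called for 2 miRNA entries, and among the species named, mir-21, miR-100-5p, miR-23a-3p, miR-93-5p, let-7i-5p, SNORD3A, SNORD18A and SNORD6 lost the call.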
